A study of Mus musculus with 15 samples.

Results

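The 8 genes described here encode the hormones that beta cells store together and the proteins that turn their precursors into hormones. They were taken by name from the deposited table, where all 8 were found among 48709 genes. Ins1 and Ins2 are the 2 insulin genes of the mouse, and Iapp encodes islet amyloid polypeptide (amylin), which is released with insulin. Pcsk1 and Pcsk2 encode the prohormone convertases PC1/3 and PC2, Cpe encodes carboxypeptidase E, Scg5 encodes the PC2 chaperone 7B2, and Pcsk1n encodes proSAAS, which is known as an inhibitor of PC1/3.

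Insulin is made as a single precursor chain that folds in the endoplasmic reticulum and is cut in the secretory granule behind pairs of basic residues. PC1/3 and PC2 make those cuts, and carboxypeptidase E then trims the basic residues that stay behind at the new ends. Proamylin is cut at basic pairs by the same convertases, and 7B2 helps PC2 to mature. Pcsk1, Pcsk2, Cpe, Scg5 and Pcsk1n are also expressed in other endocrine and neuroendocrine cells, so in whole islets their RNA does not come from beta cells alone, while PC2 is the convertase that processes proglucagon in alpha cells.

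The samples were pancreatic islets of NOD/ShiLtJ mice, an inbred strain that develops autoimmune diabetes spontaneously. Each of 15 mice gave 1 sample, with 3 mice at each of 5 ages (4, 6, 8, 10 and 12 weeks). The study's methods give all of them as females. The labels give no treatment and no added allele, no other strain was used here as a control, and the mice of different ages were different animals, so an age difference here is a difference between groups of NOD mice. Islets were freed with collagenase, enriched on a density gradient and picked by hand, and they hold endocrine cells together with any leukocytes, exocrine or stromal cells that came along.

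Reads assigned to genes (counts) summed to between 25407492 and 41616275 per mouse. Of the 48709 genes, 16554 had enough counts to be tested, and the 8 members were among them. The rarest member, Pcsk1, had 179748 counts over the 15 mice and Ins2 had 56618377, so for these genes counting error is small beside the spread between mice. The labels name neither a batch nor a sequencing date. Defining markers of beta cells (Slc2a2, Mafa, Nkx6-1), alpha cells (Gcg, Irx2), delta cells (Sst, Hhex) and PP cells (Ppy) had counts in these islets.

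The coding sequence shows where the precursors are cut. The lines give 30 bases of coding sequence, 5′ to 3′, around each pair of basic codons that flanks the C-peptide of proinsulin or the mature amylin of proamylin, read from GENCODE vM21 transcripts (GRCm38). Capitals mark the 2 basic codons.
Ins1, first site, chr19:52264774-52264803, plus strand: acacccaagtccCGCCGTgaagtggaggac
Ins1, second site, chr19:52264867-52264896, plus strand: gtggcccggcagAAGCGTggcattgtggat
Ins2, first site, chr7:142679354-142679383, minus strand: acacccatgtccCGCCGTgaagtggaggac
Ins2, second site, chr7:142678767-142678796, minus strand: gtggcccagcagAAGCGTggcattgtagat
Iapp, first site, chr6:142303316-142303345, plus strand: cctcagatggacAAACGGaagtgcaacacg
Iapp, second site, chr6:142303436-142303465, plus strand: aatacatatggcAAGAGGaatgcggcaggg
The first pair of proinsulin is written CGCCGT (arginine, arginine) and the second AAGCGT (lysine, arginine) in Ins1 and in Ins2. Proamylin uses AAACGG and AAGAGG, both lysine followed by arginine. Both Ins1 windows lie in exon 2 of 2, and the Ins2 windows lie in exons 2 and 3 of 3, because Ins2 has an intron that Ins1 lacks.

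Ins1 and Ins2 are close copies of each other. Over 324 aligned coding bases 301 were identical (92.9%), and the longest identical run was 54 bases. How the authors' software placed reads that match both genes is not given in the sources used here, so the split between Ins1 and Ins2 is less certain than their sum. Of the other members, Iapp, Pcsk2 and Pcsk1n overlap genes on the opposite strand, and those neighbours carried few counts, the most being 4524 of Pcsk2os1 against 1516095 of Pcsk2.

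The 250 bases before the start of transcription are shown for 3 members, an insulin gene, the amylin gene and a convertase gene. A RefSeq window (GRCm38.p6) was at hand for 6 of the 8 members (Ins1, Iapp, Pcsk1, Pcsk2, Scg5 and Pcsk1n). Capitals mark CATCTG, a form of E-box, TAAT, the core bound by many homeodomain factors, and TGACG, the core of a cyclic AMP response element, each searched on both strands.
Ins1, chr19:52264047-52264296, plus strand: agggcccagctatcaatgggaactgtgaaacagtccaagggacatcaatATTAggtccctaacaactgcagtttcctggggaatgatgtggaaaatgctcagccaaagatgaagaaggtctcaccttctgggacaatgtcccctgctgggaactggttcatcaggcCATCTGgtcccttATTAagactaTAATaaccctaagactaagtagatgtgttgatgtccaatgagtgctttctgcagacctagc
Iapp, chr6:142298175-142298424, plus strand: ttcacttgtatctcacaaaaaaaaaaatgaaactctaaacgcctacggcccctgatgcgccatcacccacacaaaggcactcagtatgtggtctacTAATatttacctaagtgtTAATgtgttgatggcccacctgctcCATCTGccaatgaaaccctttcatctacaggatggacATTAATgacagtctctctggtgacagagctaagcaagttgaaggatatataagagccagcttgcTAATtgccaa
Pcsk1, chr13:75089607-75089856, plus strand: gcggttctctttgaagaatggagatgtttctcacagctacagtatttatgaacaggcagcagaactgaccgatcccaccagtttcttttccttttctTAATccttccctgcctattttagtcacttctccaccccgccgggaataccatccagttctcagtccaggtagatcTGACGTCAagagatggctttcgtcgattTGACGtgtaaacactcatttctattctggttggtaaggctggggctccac
CATCTG was found in the windows of Ins1 and Iapp, and 14.4% of all 32851 promoter windows of this length hold it. The Ins1 copy lies 84 to 79 bases before the start and the Iapp copy 111 to 106 bases before it. TAAT was found in 5 of the 6 windows, 5 times in Iapp and 3 times in Ins1, and 54.9% of all windows hold it. TGACG was found in the windows of Pcsk1, Pcsk2 and Scg5, against 17.8% of all windows. In Pcsk1 it occurs 3 times, including both strands of TGACGTCA 78 to 71 bases before the start, a full palindromic element that 1.55% of all windows hold. These are matches of letters and no binding was measured. Whether these motifs have a part in the members' change with age was not tested.

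Taken per gene length as the authors used it, the insulin genes stood far above the enzymes that process their products. The deposited TPM, which divide counts by gene length, averaged 211197 for Ins2 and 124071 for Ins1 over the 15 mice. Amylin followed at 28921 TPM, then Cpe at 2254 TPM and Scg5 at 1887 TPM. Pcsk2 (943.6 TPM) and Pcsk1n (940.7 TPM) were level, with Pcsk2 higher in 8 of the 15 mice and a ratio of 0.892 to 1.15, and Pcsk1 was lowest at 272.3 TPM.

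Each other neighbouring pair in that order kept its order in every one of the 15 mice. The closest of those was Cpe over Scg5, with a ratio of TPM of 1.07 to 1.35. The TPM level of Ins2 rests on the gene length that the authors used, which the deposited values put at 1.29 times that of Ins1. The GENCODE vM21 transcripts read here have the opposite order, with 478 bases for Ins2 and 1062 bases for Ins1. With those lengths Ins2 would stand higher against Ins1 than the deposited TPM put it.

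The ratios between members within a mouse had these ranges over the 15 mice. Ins2 made up 60.6 to 66.4% of insulin TPM, and there were 9.16 to 13.8 insulin TPM for each TPM of amylin. Both ranges rest on the lengths that the authors used, and the transcript lengths above would put the Ins2 share higher. Pcsk2 stood at 2.61 to 3.93 times Pcsk1, and its chaperone Scg5 at 1.85 to 2.18 times Pcsk2.

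The 8 members together took up a large part of each library, and that part was smaller in the older mice. They held 23.4, 25.0 and 24.7% of all counts in the 3 mice at 4 weeks and 24.8, 26.4 and 24.9% at 6 weeks. At 8 weeks replicate 1 had 25.0% and the other mice 20.1 and 20.4%. The share was 13.3, 17.5 and 18.6% at 10 weeks and 16.2, 17.0 and 14.3% at 12 weeks. No 10- or 12-week-old mouse reached the lowest value of the younger mice, and at 8 weeks replicate 1 lay with the 4- and 6-week-old mice. Wilson intervals (95%) of these shares extended at most 0.017 percentage points either way, and they cover counting error only. Ins1 and Ins2 alone made up 21.8 ± 0.889% (SD, n = 3) of counts at 4 weeks and 14.2 ± 1.33% at 12 weeks.

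To compare ages, counts were scaled by TMM, which sets the libraries level for the bulk of genes, and are given as CPM, counts relative to the scaled library size. Tests are edgeR's quasi-likelihood test over all 15 mice with Benjamini-Hochberg adjustment over the 16554 genes, called at an adjusted p under 0.05. Nothing in the labels says that mice of an age came from separate litters, and p-values measure the spread between these mice.

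Insulin RNA was lower in the older islets. Ins1 was at 73276, 76247 and 78018 CPM at 4 weeks, at 75085, 75815 and 73499 CPM at 6 weeks and at 71438, 51044 and 57204 CPM at 8 weeks. It was at 35060, 47815 and 50666 CPM at 10 weeks and at 45232, 40304 and 36022 CPM at 12 weeks. The 4- and 6-week-old mice lay close together, the 10- and 12-week-old mice lay lower without overlap, and at 8 weeks replicate 1 stood near the younger mice. At 12 against 4 weeks Ins1 fell to 53.4% of its level (log2 fold change -0.90, SE 0.167, adjusted p = 0.000935).

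Ins2 was at 146657, 172274 and 162818 CPM at 4 weeks and at 89732, 102635 and 75891 CPM at 12 weeks. The groups did not overlap, and Ins2 fell to 55.7% of its 4-week level (log2 fold change -0.84, SE 0.192, adjusted p = 0.00299). In between it averaged 173056 ± 10636 CPM at 6 weeks, 137298 ± 27420 CPM at 8 weeks and 90984 ± 16857 CPM at 10 weeks (SD, n = 3). The spread between mice in CPM was widest at 8 weeks, where replicate 1 had 168696 CPM and the other mice 125135 and 118064 CPM. On the log2 scale the SD was 0.276 at 8 weeks and 0.283 at 10 weeks.

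**Figure D1:**
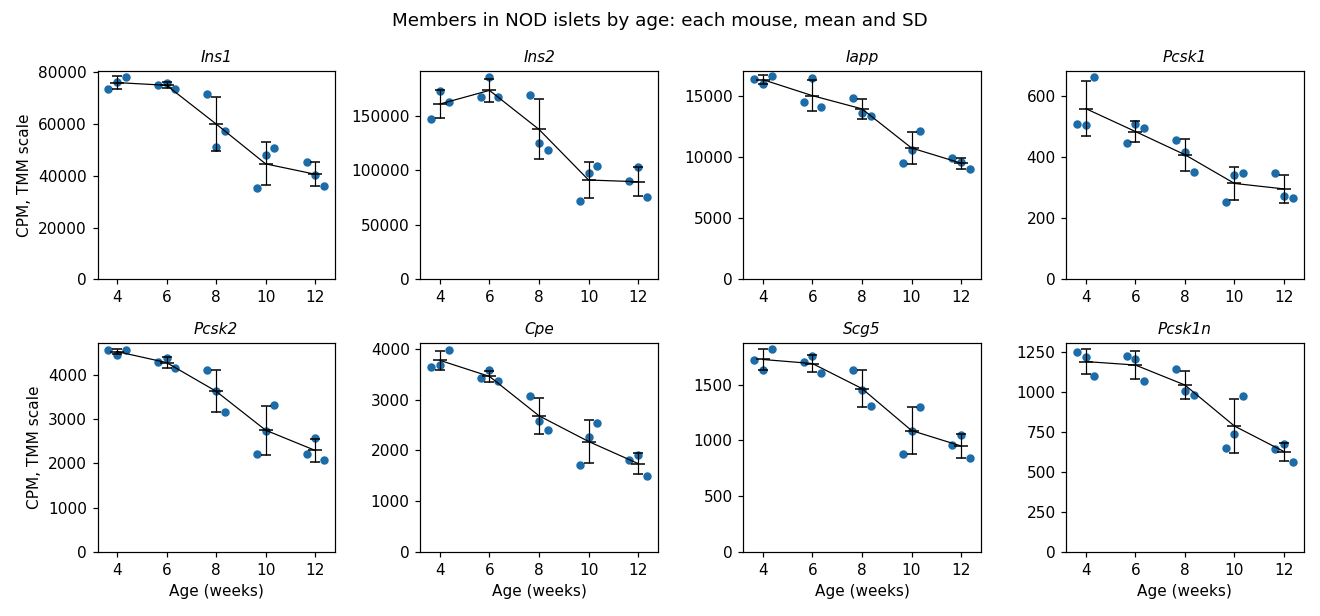
CPM on the TMM scale (y axes, each from 0) against age in weeks for the 8 members. Points are single mice, and bars with the joining line give the mean and SD of 3 mice. In each panel the 3 mice at 12 weeks lie below the 3 mice at 4 weeks.

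Amylin fell with insulin. Iapp was at 16413, 15940 and 16609 CPM at 4 weeks, at 14478, 16487 and 14071 CPM at 6 weeks and at 14844, 13608 and 13341 CPM at 8 weeks. It was at 9488, 10555 and 12163 CPM at 10 weeks and at 9898, 9570 and 9028 CPM at 12 weeks. The mice lay close together at 4 and at 12 weeks and further apart at 6 and 10 weeks, and the groups at 4 and 12 weeks did not overlap. Its decrease at 12 against 4 weeks was the smallest of the 8 (log2 fold change -0.78, SE 0.11, adjusted p = 0.000302), leaving 58.2% of the 4-week level.

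The convertases fell by similar amounts. Pcsk1 was at 509.3, 507 and 663.4 CPM at 4 weeks and at 348.5, 273.3 and 268.1 CPM at 12 weeks, with replicate 3 at 4 weeks well above the others. It fell to 53.0% of its 4-week level (log2 fold change -0.92, SE 0.156, adjusted p = 0.000621). Pcsk2 was at 4569, 4457 and 4552 CPM at 4 weeks, close together, and at 2218, 2576 and 2082 CPM at 12 weeks. It fell to 50.6% of its 4-week level (log2 fold change -0.98, SE 0.141, adjusted p = 0.000308).

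Cpe, whose product trims the cut ends, fell most of the 8. It was at 3650, 3680 and 3984 CPM at 4 weeks, at 3423, 3578 and 3365 CPM at 6 weeks and at 3070, 2575 and 2394 CPM at 8 weeks. It was at 1712, 2270 and 2538 CPM at 10 weeks and at 1800, 1914 and 1502 CPM at 12 weeks. Every mouse at 8 weeks or later was below every mouse at 4 and 6 weeks, and at 12 weeks 46.1% of the 4-week level was left (log2 fold change -1.12, SE 0.144, adjusted p = 0.000227).

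The helper proteins of the convertases followed. Scg5, the PC2 chaperone, was at 1720, 1635 and 1822 CPM at 4 weeks and at 958.8, 1052 and 837.9 CPM at 12 weeks. It fell to 55.0% (log2 fold change -0.86, SE 0.134, adjusted p = 0.000422). Pcsk1n, the PC1/3 inhibitor, was at 1252, 1218 and 1101 CPM at 4 weeks and at 642.1, 675.1 and 564.8 CPM at 12 weeks. It fell to 52.7% (log2 fold change -0.92, SE 0.135, adjusted p = 0.00033), and neither gene's groups overlapped.

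All 8 members were thus called lower at 12 against 4 weeks, where 27.2% of all genes tested were called lower. In all 8 the 3 older mice lay below the 3 younger ones, which held for 33.9% of all genes. The members' median log2 fold change was -0.91, beside -0.05 over all genes tested. In these samples the study had itself reported the main islet hormones except Sst, with beta- and alpha-cell markers such as Pcsk2, as lower. The direction of such members is therefore not independent evidence. Tested for any difference over the 5 ages, the 8 members were called (adjusted p 0.000461 to 0.0023), as were 56% of all genes.

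The decrease did not fall in 1 step that the test could single out. At 6 against 4 weeks none of the 8 was called (edgeR, 0 at an unadjusted p under 0.05, DESeq2 0), with 0.0846% of all genes called lower, and the members' log2 fold changes ran from -0.21 for Pcsk1 to 0.11 for Ins2. At 8 against 6 weeks none was called (1 at an unadjusted p under 0.05, DESeq2 0), with 0% of all genes called lower, and all 8 values were below 0, from -0.37 to -0.11. At 12 against 10 weeks none was called either (2 at an unadjusted p under 0.05, DESeq2 0), again with 0% of all genes called lower and with values from -0.33 to -0.03. Of the 16554 genes tested, 1435, 2983 and 1245 had an unadjusted p under 0.05 at these steps, in the order given.

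The step from 8 to 10 weeks was the only one with calls. There Iapp (log2 fold change -0.38, SE 0.11, adjusted p = 0.0393) and Scg5 (-0.43, SE 0.133, adjusted p = 0.046) were called lower, 2 of 8 members, with 8.37% of all genes called lower. The largest difference at this step was that of Ins2 (-0.59, SE 0.191, adjusted p = 0.0502). An unadjusted p under 0.05 was found for 7 of the 8 members and for 6268 of the 16554 genes tested. DESeq2 called 6 of the 8, with 1762 of all genes lower. At a fold of 1.5 with an unadjusted p under 0.05, 1 member was called (Ins2), with 2.83% of all genes lower.

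These calls sat near the threshold and moved with single mice. The number of members called was 7 without replicate 3 at 10 weeks, where 2908 of all genes were called lower, and 4 without replicate 3 at 8 weeks, where 1632 were, beside 1385 with all mice. It was 0 without replicate 2 or 3 at 4 weeks, 2 at 6 weeks, 1 or 2 at 8 weeks, 1 or 2 at 10 weeks, or 1 at 12 weeks. It was 1 without replicate 1 at 4 weeks, 1 or 3 at 6 weeks, or 3 at 12 weeks. Without replicate 1 or 2 at 8 or at 10 weeks 0 of all genes were called. In the other cases with 0 members, 883 to 1186 of all genes were called lower. A block for the replicate number also left 0 of all genes called (adjusted p 0.0874 for Iapp and 0.0812 for Scg5).

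The members fell beside large increases in genes of other cells. The 16 leukocyte markers found in the table rose together at 12 against 4 weeks, where 26.3% of all genes were called higher (16 of 16 called, median log2 fold change 4.65). Their summed level was 217.2, 72.21 and 41.47 CPM at 4 weeks and 1821, 1885 and 2137 CPM at 12 weeks, with the macrophage and granulocyte gene Lyz2 the most abundant in each of the 15 mice. Cd79b, a B cell marker, was at 0 in the third 4-week-old mouse.

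At 8 and at 10 weeks, but not at 4, 6 or 12 weeks, the mice ranked by leukocyte markers in the reverse order of Ins2. For Ins1 this held at 4, 10 and 12 weeks but not at 6 or 8 weeks. There were 3 mice to rank at each age. At 8 weeks replicate 1, with the highest Ins2, had 155.8 CPM of leukocyte markers, and the other mice had 634.9 and 907.9 CPM. At 10 weeks replicate 1, with the lowest Ins2, had 2186 CPM, and the other mice had 1616 and 924.1 CPM. The acinar marker sum ranked the 10-week-old mice in the same way, at 20450, 8245 and 2560 CPM. At 8 weeks it ran in the same order as Ins2 instead, at 7874, 4117 and 2249 CPM in replicates 1 to 3. The part of leukocyte RNA in the members' decrease was not tested, and in bulk islets fewer beta cells and less RNA per beta cell cannot be told apart.

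Markers of other cells were mixed at 12 against 4 weeks on the TMM scale. Of all genes, 26.3% were called higher there and 27.2% lower. The 7 mesenchyme markers were called higher in 7 of 7 cases, from a sum of 304.4 to 527 CPM at 4 weeks to 1199 to 1913 CPM at 12 weeks, led by Col3a1. Acinar markers, whose enzymes come from exocrine cells, were not called in 12 of 12 cases, and their sum varied from 1730 to 14760 CPM within the 4-week-old mice alone. Of 5 plasma cell markers 4 were called higher and 1 lower (Xbp1, their most abundant), of 5 duct markers 2 higher and 1 lower (Krt7, their most abundant), of 5 endothelial markers 3 higher, and of the 3 intestinal markers that could be tested 2 higher. The intestinal sum was 324.4 CPM in 1 mouse at 12 weeks and 40.27 and 47.34 CPM in the others. Vil1 was the most abundant intestinal marker, and Fabp2, Muc2 and Alpi, which define intestinal epithelium, were at 0 in all 3 mice at 4 weeks. The part of these cells in the members' values was not tested.

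A question the study's whole-islet values leave is how the members changed relative to other endocrine genes. The counts were therefore also scaled in each mouse to the geometric mean of 12 genes expressed across islet endocrine cells, called the endocrine scale here. They are 6 transcription factors (Neurod1, Isl1, Pax6, Insm1, Rfx6, Nkx2-2) and 6 granule genes (Chga, Chgb, Scg2, Scg3, Ptprn, Ptprn2). On the TMM scale all 6 transcription factors (median log2 fold change -0.88) and 5 of 6 granule genes (median -0.92) were called lower at 12 against 4 weeks, beside 27.2% of all genes. The exception was Chgb, which encodes chromogranin B (-0.15, SE 0.199, adjusted p = 0.541), and which was called higher on the endocrine scale (0.71, SE 0.185, adjusted p = 0.00329) although it is 1 of the 12.

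On the endocrine scale the members' differences were near 0, except that of Cpe. At 12 against 4 weeks the median log2 fold change of the 8 was -0.04, beside 0.82 over all genes tested. Cpe was the 1 member called lower, with 0.828% of all genes called lower, and none was called higher, with 80.5% of all genes called higher. The 95% intervals of the 7 others included 0. These values depended on the reference genes and the fit. Over the alternatives, Ins1 ran from -0.17 to 0.02, Ins2 from -0.12 to 0.07 and Iapp from -0.05 to 0.14. Pcsk1 ran from -0.18 to 0.01, Pcsk2 from -0.25 to -0.07, Scg5 from -0.13 to 0.05 and Pcsk1n from -0.20 to -0.01. The lows of Ins2, Iapp and Pcsk2 came with a list of 12 beta-cell genes as reference. Of the 7, only Pcsk2 was called in any alternative.

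**Figure D2:**
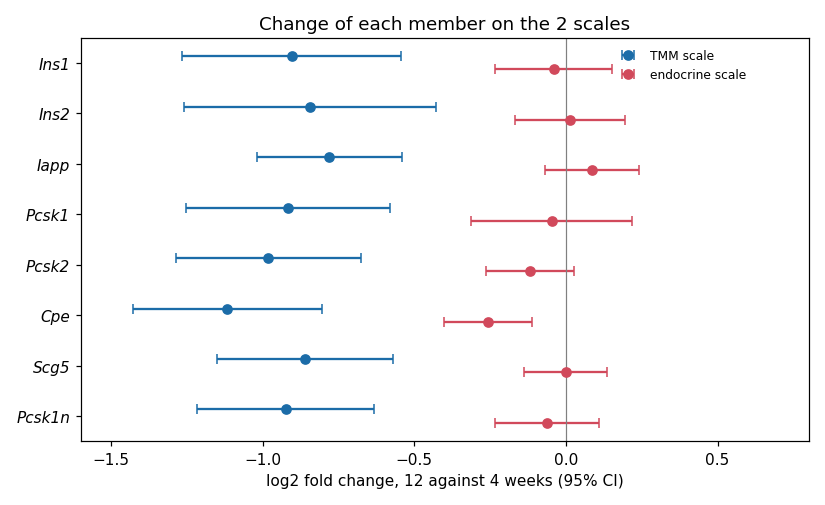
log2 fold change at 12 against 4 weeks (x axis) with its 95% interval for each member (y axis), on the TMM scale in blue and on the endocrine scale in red. The TMM values lie between -1.12 and -0.78, and the endocrine values lie around 0 except for Cpe at -0.26.

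Neither insulin gene was called relative to the endocrine genes. Ins1 averaged 57964 ± 601.8 CPM on the endocrine scale at 4 weeks and 56347 ± 4386 at 12 weeks (SD, n = 3), a log2 fold change of -0.04 with an interval of -0.23 to 0.15. Ins2 averaged 122700 ± 8911 and 123849 ± 7644, a log2 fold change of 0.01 with an interval of -0.17 to 0.20.

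Iapp, Pcsk1, Scg5 and Pcsk1n were also not called. Their log2 fold changes on the endocrine scale were 0.09, -0.05, 0.00 and -0.06, and the widest interval was that of Pcsk1, from -0.31 to 0.22. Scg5 was at 1257 to 1352 CPM on this scale at 4 weeks and at 1289 to 1359 CPM at 12 weeks, and these ranges overlapped. Pcsk2 was at 3579, 3425 and 3377 CPM at 4 weeks and at 2983, 3327 and 3245 CPM at 12 weeks. Its groups did not overlap but it was not called (log2 fold change -0.12, interval -0.26 to 0.02, adjusted p = 0.113). With the 6 granule genes alone as reference it was called lower (-0.17, adjusted p = 0.0443), as it was with a list of 12 beta-cell genes (-0.25, adjusted p = 0.0125).

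Cpe was lower even relative to the mean of the 12 endocrine genes. It was at 2860, 2829 and 2956 CPM on the endocrine scale at 4 weeks, at 2797, 2709 and 2830 CPM at 6 weeks and at 2508, 2426 and 2418 CPM at 8 weeks. It was at 2581, 2953 and 2645 CPM at 10 weeks and at 2421, 2472 and 2341 CPM at 12 weeks. The 8- and 12-week-old mice all lay below the 4- and 6-week-old ones, whereas at 10 weeks the values overlapped those of the young mice, so the order over ages was not steady. At 12 weeks 83.7% of the 4-week level was left (log2 fold change -0.26, SE 0.0675, adjusted p = 0.00341), and the call held with each of the 15 mice left out in turn. A fall on this scale was not particular to Cpe. Insm1, 1 of the 12 reference genes, was also called lower at 12 against 4 weeks (-0.20, SE 0.0764, adjusted p = 0.0288).

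With 6 mice against 6 (10 and 12 against 4 and 6 weeks) 2 members were called on the endocrine scale. Cpe was lower (log2 fold change -0.14, SE 0.0477, adjusted p = 0.0136), with 0.997% of all genes called lower. Iapp was higher (0.13, SE 0.0504, adjusted p = 0.0289), with 83.4% of all genes called higher. Ins2 lay just outside the threshold (-0.13, SE 0.0598, adjusted p = 0.0514), and the other 5 members were not called. Tested for any difference over the 5 ages, Cpe was again the 1 member called (adjusted p = 0.0103), beside 80% of all genes.

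The 2 smaller calls depended on which genes served as the reference. With the 6 transcription factors alone, Cpe was not called at 10 and 12 against 4 and 6 weeks (log2 fold change -0.08, adjusted p = 0.21), and with the 6 granule genes alone or a list of 12 beta-cell genes Iapp was not called (adjusted p 0.246 and 0.144). Ins2 was called lower with the granule genes (-0.20, adjusted p = 0.0137) and with the beta-cell list (-0.16, adjusted p = 0.0383). With the granule genes Ins1 (-0.14, adjusted p = 0.0474) and Pcsk2 (-0.12, adjusted p = 0.0453) were called lower too. A block for the replicate number (adjusted p = 0.0518) or a fit without the filter on low counts (adjusted p = 0.0761) ended the Iapp call too. Leaving out any 1 of 6 mice also ended the Iapp call, with adjusted p from 0.0506 to 0.0745: replicates 2 and 3 at 4 weeks, 1 and 3 at 6 weeks, 1 at 10 weeks and 3 at 12 weeks. Leaving out any 1 of 5 mice brought Ins2 past the threshold, with adjusted p from 0.00994 to 0.0492: replicate 1 at 4 weeks, 1 and 2 at 8 weeks, 2 at 10 weeks and 2 at 12 weeks. At 12 against 4 weeks Cpe was called with each of the references (log2 fold change -0.20 to -0.39).

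**Figure D3:**
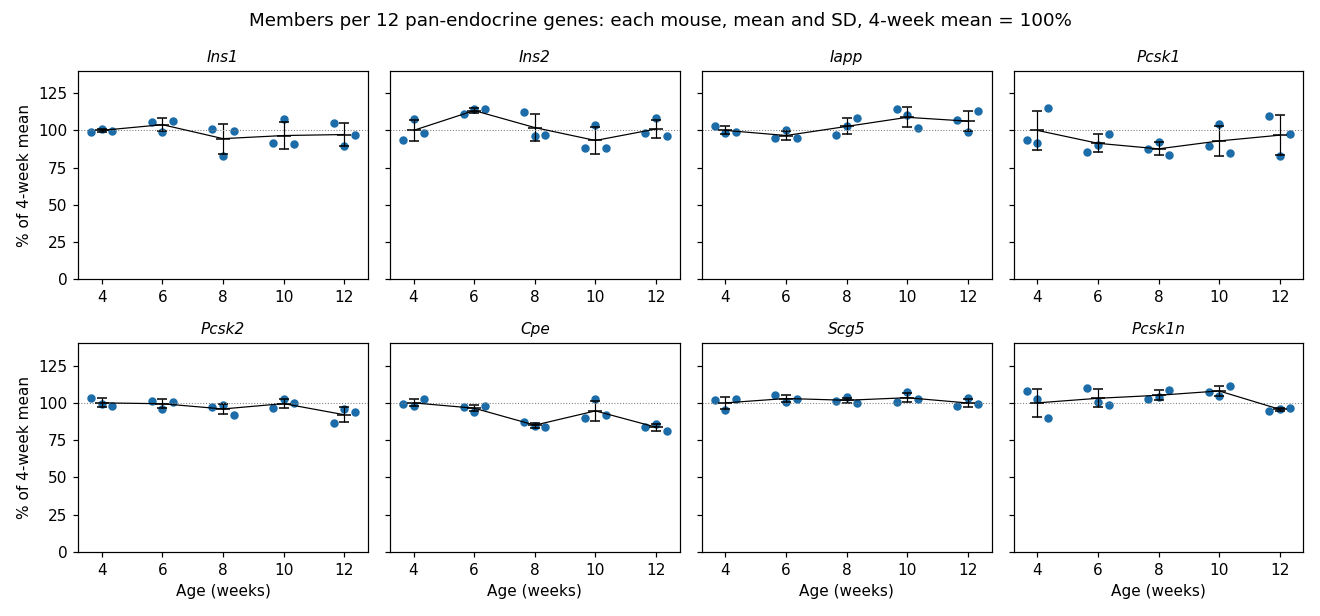
Value of each member on the endocrine scale as a percentage of its own 4-week mean (y axes, 0 to 140%) against age in weeks, where points are single mice and bars with the joining line give the mean and SD of 3 mice. Cpe lies below 100% in all 3 mice at 6, 8 and 12 weeks, with a mean of 83.7% at 12 weeks, and the means of the 7 other members at 12 weeks lie between 92.0 and 106.2%.

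The other islet hormones moved in both directions on the endocrine scale. Gcg, the glucagon gene of alpha cells, averaged 37425 ± 2025 CPM on the endocrine scale at 4 weeks and 26220 ± 3752 CPM at 12 weeks (SD, n = 3), and fell (log2 fold change -0.51, SE 0.12, adjusted p = 0.00157). Ppy, which encodes pancreatic polypeptide, fell by 0.92 (log2, adjusted p = 0.00154), and Pyy, which encodes peptide YY, fell by 0.90 (log2, adjusted p = 0.000318). Sst, the somatostatin gene of delta cells, rose on that scale (0.47, adjusted p = 0.00368), while on the TMM scale it was not called (-0.39, adjusted p = 0.0726). Ghrl, the ghrelin gene, was near the limit of detection, with a mean of 0.578 CPM at 4 weeks, and was not called. So on the endocrine scale 3 of 5 other hormones were called lower and 1 higher at 12 against 4 weeks. Of all genes 0.828% and 80.5% were, and Sst lay below the median of all genes (0.82).

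Alpha cell markers fell with glucagon. At 12 against 4 weeks Irx2, an alpha cell transcription factor gene, fell by 0.61 on the endocrine scale (log2, SE 0.131, adjusted p = 0.000903), and Ttr, which encodes transthyretin, fell by 0.87 (log2, SE 0.156, adjusted p = 0.000279). In the beta-cell list, 12 genes of glucose sensing, secretion and identity, a smaller share was called higher than among all genes. On that scale 0 of 12 were called lower and 3 higher, beside 0.828% and 80.5% of all genes, and their median was 0.06 (log2). On the TMM scale 10 of 12 were called lower, beside 27.2% of all genes.

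Differences between members within a mouse do not depend on the scaling, and 9 pairs were compared at 10 and 12 against 4 and 6 weeks, 6 mice against 6. Values are differences of log2 CPM, tested by a two-sided exact permutation test that can reach 0.00216, with Benjamini-Hochberg adjustment over the 9 pairs. No pair passed (0 of 9 at an adjusted p under 0.05, 1 at an unadjusted p under 0.05).

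The 1 pair with a small unadjusted p was amylin against insulin. Iapp minus the mean of Ins1 and Ins2 was -2.84 ± 0.118 in the young mice and -2.61 ± 0.128 in the older ones (SD, n = 6), a rise of 0.23 on the log2 scale (exact permutation p = 0.013, adjusted 0.117). Leaving out replicate 1 at 4 weeks brought it past the threshold (0.27, adjusted p = 0.039 by the same exact test), and over the 12 mice left out in turn the adjusted p ran to 0.214. By age its mean was -2.76, -2.93, -2.69, -2.56 and -2.66 from 4 to 12 weeks, lowest at 6 weeks.

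Scg5 against Pcsk2, the chaperone and its convertase, was the tightest pair. The difference was -1.37 ± 0.0526 in the young and -1.30 ± 0.0499 in the older mice (SD, n = 6; exact permutation p = 0.0563, adjusted 0.253). Pcsk1 against Pcsk2 differed by 0.05 between the age groups (exact permutation p = 0.682), and Pcsk1n against Pcsk1 by 0.02 (exact permutation p = 0.885). The last of these pairs varied most among young mice, from 0.73 in replicate 3 at 4 weeks, which had the highest Pcsk1, to 1.46 in replicate 1 at 6 weeks.

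Ins2 against Ins1 differed by -0.06 between the age groups (exact permutation p = 0.416). At 10 weeks the 3 mice were nearly alike, at 1.04, 1.03 and 1.03, and at 12 weeks they were spread from 0.99 to 1.35. Against insulin, Pcsk1, Pcsk2 and Cpe differed by 0.09, 0.05 and -0.04 between the age groups (exact permutation p 0.351, 0.513 and 0.587). Gcg against insulin differed by -0.23 without passing the test (exact permutation p = 0.0974, adjusted 0.292).

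The choice of ages mattered. Between 4 and 12 weeks alone Cpe against insulin was lower in all 3 older mice (-0.24), as was Gcg against insulin (-0.51), and 3 against 3 mice cannot go below an exact permutation p of 0.1. Scg5 against Pcsk2 was higher in all 3 (0.12). Between 6 and 10 weeks alone the Cpe pair was instead higher in all 3 older mice (0.17). So were Iapp (0.37), Pcsk1 (0.22) and Pcsk2 (0.20) against insulin, and Ins2 against Ins1 was lower in all 3 (-0.18). Gcg stood highest against insulin at 4 weeks, at -1.16, -1.15 and -1.21, above every older mouse.

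**Figure D4:**
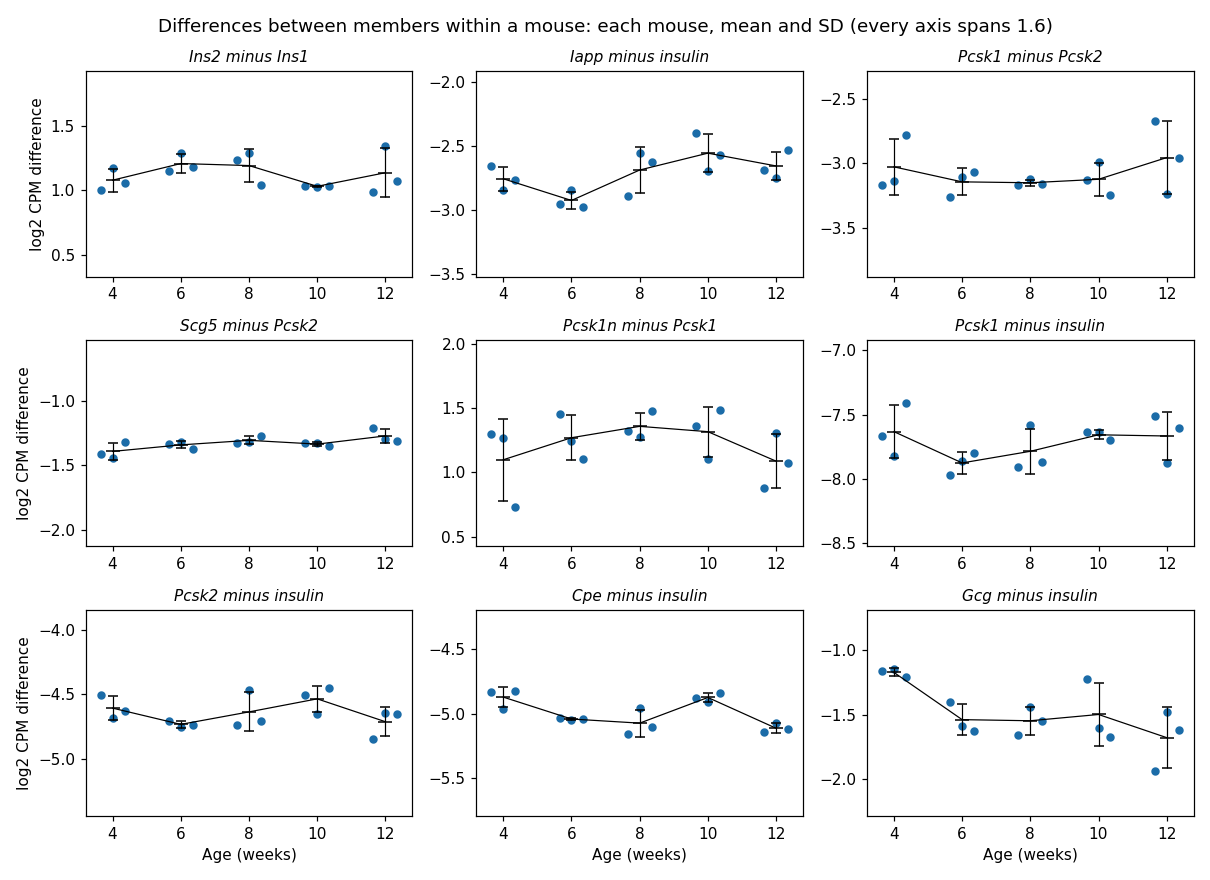
Difference of log2 CPM between the 2 genes of each pair (y axes, each spanning 1.6 units) against age in weeks; insulin stands for the mean of Ins1 and Ins2. Points are single mice and bars with the joining line give the mean and SD of 3 mice; Scg5 minus Pcsk2 is the tightest, and the 3 mice of 4 weeks lead in Gcg minus insulin.

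Further enzymes of prohormone maturation were mixed. Of 16 other convertases, trimming and amidating enzymes, 7 were called lower and 3 higher at 12 against 4 weeks on the TMM scale, beside 27.2% and 26.3% of all genes. Their median was -0.19 (log2). Among those called lower was Pam (-0.93, SE 0.0932, adjusted p = 0.000128), which amidates peptides such as amylin. The largest increases were those of Cpz (2.88, SE 0.788, adjusted p = 0.00842), an extracellular carboxypeptidase, and Pcsk5 (1.67, SE 0.299, adjusted p = 0.000796), a convertase expressed in many tissues. On the endocrine scale Pam lay beside the members (-0.07, adjusted p = 0.458), and 13 of the 16 were called higher, a share like the 80.5% of all genes.

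Genes for the entry and folding of proinsulin in the endoplasmic reticulum were mostly lower on the TMM scale. Of 14 in the table, 13 were called lower and none higher at 12 against 4 weeks on the TMM scale, beside 27.2% and 26.3% of all genes. Their median log2 fold change was -0.51. The largest decreases were those of Ero1lb (-1.01, SE 0.149, adjusted p = 0.000343), the oxidase that serves disulfide formation in beta cells, and Spcs3 (-0.72, SE 0.108, adjusted p = 0.000361), a subunit of the signal peptidase. On the endocrine scale 8 of 14 were called higher and none lower, where 80.5% of all genes were called higher, and Ero1lb was not called (-0.15, adjusted p = 0.159).

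Receptors and enzymes that act on the hormones after release were mixed. Of 8 testable genes none was called lower and 4 were called higher at 12 against 4 weeks on the TMM scale, beside 27.2% and 26.3% of all genes. Their median was 0.20 (log2). The largest increases were those of Mme (2.15, SE 0.559, adjusted p = 0.00643), which encodes the peptidase neprilysin, and Ramp1 (1.57, SE 0.249, adjusted p = 0.00046), a partner protein of calcitonin family receptors. Insr, the insulin receptor gene, was not called at 12 against 4 weeks (-0.07, adjusted p = 0.565) but was lower at 10 and 12 against 4 and 6 weeks (-0.18, adjusted p = 0.0301). Ide, which encodes insulin-degrading enzyme, was not called at 12 against 4 weeks (0.13, adjusted p = 0.295). On the endocrine scale all 8 were called higher, beside 80.5% of all genes.

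Over the 15 mice the members ran together, as a description of points that share age, library and depth. On the TMM scale Pearson's r of log2 CPM between members ran from 0.86 (Pcsk1 with Pcsk1n) to 0.99 (Pcsk2 with Scg5). The 3 other genes most like Ins1 were Eid1 (0.986), Jag2 (0.985) and Slc2a5 (0.982), with r in parentheses. For Ins2 they were Sun1 (0.984), Grik5 (0.983) and Zfp523 (0.982), and for Iapp Insm1 (0.984), Scg2 (0.983) and Atp6v0b (0.982). Insm1 and Scg2 are among the 12 endocrine reference genes. For Pcsk1 they were Dynlt1b (0.973), Tmem106c (0.971) and Cdk16 (0.969), and for Pcsk2 Aplp1 (0.994), Elovl2 (0.993) and Cpn1 (0.992). For Cpe they were Cpn1 (0.995), Apbb1 (0.994) and Mageh1 (0.992), for Scg5 Sez6l2 (0.996), Bcar1 (0.996) and Dhx32 (0.994), and for Pcsk1n Nptxr (0.989), C330006A16Rik (0.986) and Aplp1 (0.985).

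On the endocrine scale, which takes out what the endocrine genes share, the members ran together much less. The highest r between members was 0.70 (Pcsk2 with Cpe) and the lowest was -0.67 (Ins2 with Iapp). The genes most like Ins2 were Slc2a2 (0.749), Gjd2 (0.672) and Kcnh6 (0.672), of which Slc2a2 encodes the glucose transporter of beta cells. Those most like Ins1 were Slc2a5 (0.674), Bex2 (0.647) and Maged2 (0.622). Those most like Iapp were Parp8 (0.919), Cmpk2 (0.898) and Lgals3bp (0.878), of which Cmpk2 and Lgals3bp are known as genes induced by interferon. On this scale 83.4% of all genes were called higher at 10 and 12 against 4 and 6 weeks, as Iapp was. A link between Iapp and interferon was not tested. Cpe was again most like Cpn1, and its 3 were Cpn1 (0.881), Syt5 (0.848) and Cryba2 (0.834). For Pcsk1 they were Dynlt1b (0.783), Nucb2 (0.762) and Tmed3 (0.715), and for Pcsk2 Celf3 (0.83), Hapln1 (0.758) and Tmem65 (0.743). For Scg5 they were Sez6l2 (0.756), Ksr2 (0.698) and Ero1lb (0.694), and for Pcsk1n Nptxr (0.744), Lrrc10b (0.718) and Desi1 (0.666).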

How the data were processed

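Islet RNA of 15 mice was measured by sequencing of polyadenylated RNA. According to the study's methods, the authors trimmed, aligned and counted reads in CLC Genomics Workbench with default settings, and the submitters' processing notes name the build mm10. The deposited counts are whole reads per gene without normalization. The TPM and RPKM values are the authors' counts divided by gene length and depth, as deposited, and were used for levels between genes only. A further 15 per-sample columns were not used.

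The 8 members and all gene lists were chosen with earlier results of these data known. Counts were tested with edgeR 4.0.16 in R 4.3.3 (filterByExpr, TMM, glmQLFit with a mean per age), with Benjamini-Hochberg adjustment over 16554 of 48709 genes. SE is the log2 fold change over the square root of F. On the endocrine scale the effective library size was proportional to the geometric mean of 12 genes. Levels of log2 CPM used a prior count of 2. Named genes were the members, every other hormone, the 2 largest increases and decreases called per list, and the 3 genes most alike a member with a mean log2 CPM of at least 5. Some genes that this rule or a marker list would name are not reported here. Totals ran from 25407492 to 41616275 counts, where 3 counts are 0.0754 to 0.128 CPM. Alternatives used DESeq2 1.42.0 and others named in the closing section. The fits were tested on simulated data. Python 3.11.15 and scipy 1.17.1 ran the permutation tests.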

Additional observations from a re-analysis of the deposited data

Results flagged for a closer look

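In the difference of log2 CPM between Ins2 and Ins1, the second 12-week-old mouse (1.35) lay apart from the 5 other mice of 10 and 12 weeks (0.99 to 1.08). Its gap to the nearest mouse was 0.759 of the whole range of the 6, above Dixon's 95% critical value. This was 1 of 18 groups examined, and chance flags about 1 group in 20.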

How the results depend on the processing

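The members called at 12 against 4 weeks and over the 5 ages numbered 8 under every alternative run for them (DESeq2, its size factors, library totals, no filter, the replicate number as a block and each mouse left out, and, at 12 against 4 weeks, the 2 ages alone and a fold of 1.5 with an unadjusted p under 0.05), and the counts at 6 against 4, 8 against 6 and 12 against 10 weeks were 0 under each. Library totals moved the median of all genes at 12 against 4 weeks to 0.20 from -0.05 and left the members between -0.87 and -0.54. At 10 against 8 weeks 2 became 1 at a fold of 1.5 with an unadjusted p under 0.05 (2.83% of all genes lower), 6 with DESeq2 (1762 of all genes lower), 0 with library totals (489) or no filter (915), 0 with the 2 ages alone or the block (0 of all genes in both), and 0 to 7 with a mouse left out. On the endocrine scale, the count at 12 against 4 weeks was 2 in place of 1 with the granule genes or the beta-cell list as reference (Pcsk2 added). Of all genes, 167 and 222 were then called lower, in place of 137. The count over the 5 ages was also 2 with either (12638 and 12909 of all genes called, in place of 13244), and it was 1 to 2 with a mouse left out. The count at 10 and 12 against 4 and 6 weeks covers both directions and was 2 (13969 of all genes called, 165 of them lower). It was 1 with no filter (14589, 147 lower) or the block (13804, 156 lower), where Iapp was lost. With the transcription factors it was 1 (14276, 108 lower), where Cpe was lost. It was 4 with the granule genes (13442, 221 lower) and 1 to 3 with a mouse left out. Pairs that passed were 0, and 0 to 1 with a mouse left out. The cause of these shifts was not tested. Mice with the same replicate number did not deviate together from their age means (mean r -0.08 over 30 pairs, 0.04 for different numbers), so the numbers were not taken as pairing, and a block changed no other count. Values that changed sign were all of uncalled differences. With the transcription factors as reference these were, at 12 against 4 weeks, Ins1 (0.0157), Pcsk1 (0.00918) and Scg5 (0.0526), and, at 10 and 12 against 4 and 6 weeks, Pcsk1 (0.0533) and Pcsk2 (0.00276). With the granule genes they were Ins2 (-0.0426) at 12 against 4 weeks and Scg5 (-0.0582) and Pcsk1n (-0.0596) later against earlier, and with the beta-cell list Ins2 (-0.117) and Iapp (-0.0464), and Scg5 (-0.0263) and Pcsk1n (-0.0283). With a mouse left out, values at 12 against 4 weeks ran from -0.0993 to 0.0131 for Ins1, -0.0383 to 0.0717 for Ins2, -0.148 to 0.0672 for Pcsk1 and -0.0343 to 0.0176 for Scg5, and values later against earlier from -0.0614 to 0.046 for Pcsk1, -0.0134 to 0.0128 for Scg5 and -0.0347 to 0.0300 for Pcsk1n. Of the pairs, 12 against 4 weeks alone turned Ins2 minus Ins1 (0.0578), Pcsk1n minus Pcsk1 (-0.0107), Pcsk1 minus insulin (-0.0339) and Pcsk2 minus insulin (-0.106), 10 against 6 weeks alone turned Cpe minus insulin (0.167) and Gcg minus insulin (0.0398, from -0.23), and a mouse left out gave -0.0278 to 0.107 for Pcsk1 minus Pcsk2 and -0.0722 to 0.0823 for Pcsk1n minus Pcsk1.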
